A study of Rattus norvegicus with 16 samples.

Results

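Inflammation in the diabetic kidney is often read through the NLRP3 inflammasome and the NF-kB pathway, and 10 genes of these routes were followed here in rat renal tissue: Il1b, Il18, Nlrp3, Casp1, Pycard, Nfkb1, Nfkbia, Icam1, Tnf and Il6. They were picked by gene name from the 35849 genes of the deposited table, and all 10 names were found in it. RNA sequencing had been carried out on the kidneys of 16 male Sprague Dawley rats, 6 to 8 weeks old at the start, with 4 rats in each of 4 groups. Rats of the normal group had received citrate buffer and a normal diet. The other 12 rats had all received streptozotocin, a toxin of the insulin-producing beta cell, as a 45 mg/kg injection, had passed a blood glucose of 16.7 mmol/L a week later, and were kept on a diet rich in glucose and fat. Of these, the DN (diabetic nephropathy) group received vehicle, and the remaining groups received sinomenine, a plant alkaloid, each day for 8 weeks by gavage, at 20 mg/kg (SIN20) or at 40 mg/kg (SIN40). The labels describe no group given sinomenine without streptozotocin, and the normal group differs from the DN group in both the injection and the diet. Library serial numbers are consecutive inside every group, and any batch effect of library making cannot be told apart from the group.

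The inflammasome is a protein platform that turns a danger signal into mature cytokines. NLRP3 is the sensor, the adaptor ASC (encoded by Pycard) links it to caspase-1 (Casp1), and caspase-1 cuts the precursors of IL-1β (Il1b) and IL-18 (Il18) into their secreted forms, a step that mRNA levels do not measure. NF-kB is the transcription factor that primes this system: p50 comes from the precursor that Nfkb1 encodes, IκBα (Nfkbia) holds the factor in the cytoplasm and is itself induced by it, and ICAM-1 (Icam1), TNF (Tnf) and IL-6 (Il6) are classical products of its activity. In the kidney these genes are used by resident and infiltrating leukocytes, by endothelium and by tubular cells, and in bulk tissue fewer cells of a type and less RNA per cell cannot be told apart.

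The DNA element that NF-kB binds, the κB site, was looked for in the 250 bases before the RefSeq start of each gene (build GRCr8) as the κB consensus of 10 bases, on both strands. All 10 genes had a promoter in that set, and 2 of them held a match, against 2117 of 33469 promoters (6.33%) in the set as a whole. Both stretches are shown on the strand of the gene, with the match in capitals, because Nfkbia and Il6 are products of the factor whose mRNA is described below. The Nfkbia match lies at chr6:78597084-78597113 with its flanks (minus strand, 31 to 22 bases before the start, match read on the opposite strand), and the Il6 match at chr4:5894624-5894653 with its flanks (minus strand, 68 to 59 bases before the start).
Nfkbia κB match: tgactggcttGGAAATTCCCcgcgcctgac
Il6 κB match: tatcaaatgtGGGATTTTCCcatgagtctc
A match is a description of the letters, not evidence of binding. For the other 8 genes no match says only that these letters are absent from this window.

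The libraries held 19616312 to 25217030 estimated counts per rat. Levels are given as CPM, counts scaled to the size of each library with TMM factors over the 16 rats. Defining tubular genes were abundant in every rat. Lrp2 (megalin, of the proximal tubule) was at 1570 to 2838 CPM and Umod (uromodulin, of the thick ascending limb) at 1367 to 3596 CPM. Aqp2 (the water channel of the collecting duct) was at 138.7 to 1266 CPM. Levels were not alike in all groups. Over normal, Umod gave log2 fold changes of -0.77 in DN, -0.76 in SIN20 and -1.06 in SIN40. Each had an adjusted p under 0.05 in edgeR's quasi-likelihood test. In DN over normal, Aqp2 gave 1.23 (adjusted p = 0.0760) and Lrp2 -0.27 (adjusted p = 0.224) in that test. A set of 7 genes of capsule, pelvis and urothelium set DN replicate 3 apart, at 262.5 CPM against 87.6 to 110.1 in the other DN rats, and leaving that rat out changed no call of the 10 genes. In the normal rats most of this sum was Dcn (93.2 to 151 CPM). Normal replicate 1 did not stand apart by the sum (166.6 CPM) but did by single genes. Its Upk3a was at 11.9 CPM (0.220 to 1.02 in the other normal rats) and its Upk1b at 10.5 CPM (0.756 to 2.02). Leukocyte genes (16 listed, none at 0 in all 16 rats) summed to 279 to 625 CPM in normal rats, 418 to 535 in DN rats, 389 to 483 in SIN20 rats and 371 to 506 in SIN40 rats, and these ranges overlap. Much of each sum was Lyz2 (lysozyme, at 163.7 to 426.5 CPM in the normal rats), so the sum says little of the other markers. Normal replicate 1 had the lowest leukocyte sum and the lowest Aqp2 level of the 16 rats.

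The 10 genes fell into 3 classes of abundance. Per kilobase of the gene length in the table, the mean level over the 16 rats was 28.8 CPM per kb for Nfkbia, 18.3 for Nfkb1 and 12.6 for Icam1. The inflammasome genes and their cytokines were lower, at 4.06 CPM per kb for Pycard, 1.92 for Il18, 1.65 for Casp1, 1.00 for Il1b and 0.644 for Nlrp3. Single rats of Nfkbia and Nfkb1 overlapped, as did neighbours from Pycard down to Nlrp3, whereas no rat of Icam1 reached the lowest Nfkb1 rat or fell to the highest Pycard rat. The third class was Tnf and Il6, at 0.0141 and 0.0107 CPM per kb, which is too low to judge.

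**Figure D1:**
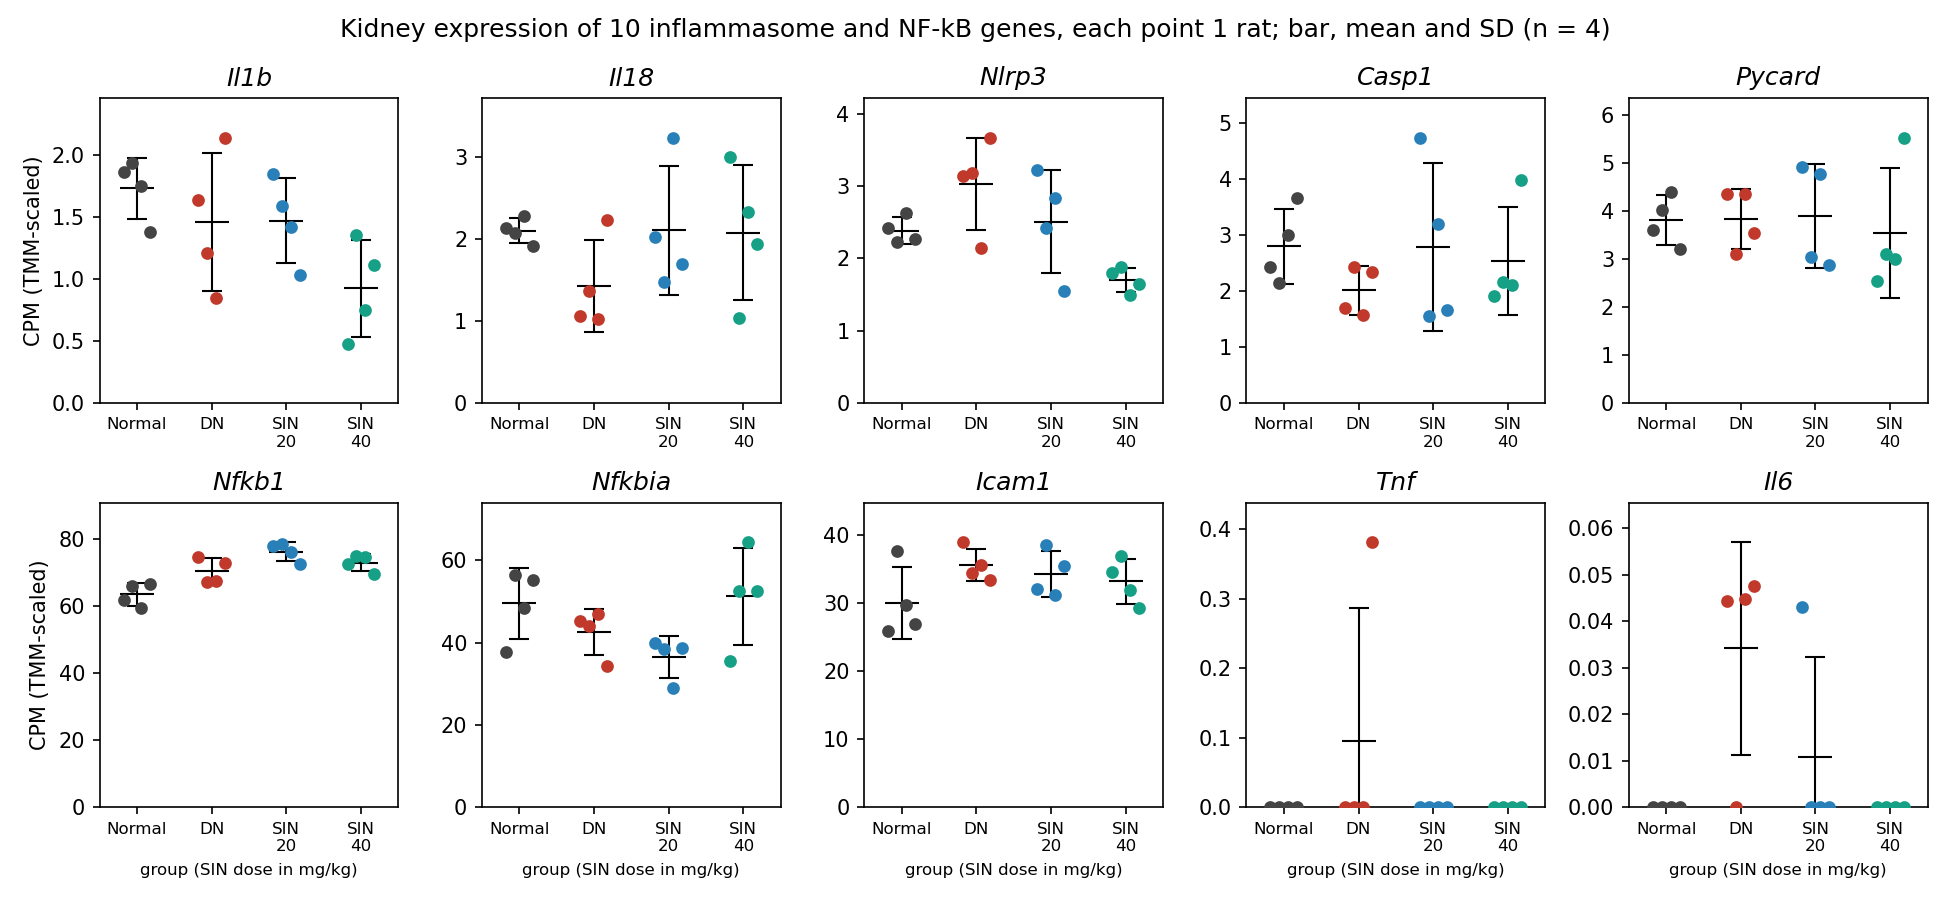
CPM (TMM-scaled, y axis from 0) of each of the 10 genes in single rats (points, n = 4 per group) with the group mean and SD (bars), for normal, DN, SIN20 and SIN40 rats. Nfkb1 is the gene whose 12 streptozotocin rats (67.0 to 78.4 CPM) all lie above the normal rats (59.4 to 66.5 CPM), Nlrp3 in the SIN40 group (1.49 to 1.88 CPM) lies below the other groups except 1 SIN20 rat, and Tnf and Il6 are at or near 0.

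Across the 6 pairwise comparisons, none of the 8 genes that could be tested passed an adjusted p of 0.05 in edgeR's quasi-likelihood test, in either direction. Tnf and Il6 did not pass the filter on low counts in any comparison. DESeq2 called Nfkb1 alone in the SIN20 against normal comparison and made no call among the 8 in the other 5, where it gave no adjusted p for Il1b against DN at either dose or for Il18 in SIN20 against DN. In the DN over normal comparison, 19.5% of the 15775 genes tested were called. In both SIN over DN comparisons 0.0% of all genes were called.

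Nlrp3, the sensor of the platform, had the smallest p of the 8 genes against DN, at the higher dose. It was at 2.42, 2.23, 2.63 and 2.27 CPM in the normal rats, at 3.14, 3.19, 2.15 and 3.67 in the DN rats, at 3.23, 2.43, 2.84 and 1.55 in the SIN20 rats and at 1.80, 1.88, 1.49 and 1.65 in the SIN40 rats. The 4 SIN40 rats lay below all DN rats and all normal rats, while the DN and SIN20 groups each overlapped the normal group. Group means were 2.39 ± 0.184 CPM for normal, 3.04 ± 0.638 for DN, 2.51 ± 0.717 for SIN20 and 1.70 ± 0.169 for SIN40 (SD, n = 4 each), from 32 to 77 counts per rat. The log2 fold change of SIN40 over DN was -0.83 (SE 0.23, 95% interval -1.36 to -0.31), with an unadjusted p of 0.00553 and an adjusted p of 0.199 in edgeR's quasi-likelihood test. Over the alternative settings the adjusted p of this difference ran from 0.0596 (DESeq2) to 0.407, and the log2 fold change from -0.96 to -0.73 as each rat was left out. Over normal the value was -0.49 for SIN40 (SE 0.21, adjusted p = 0.201) and 0.35 for DN (SE 0.23, adjusted p = 0.287). Over DN the lower dose gave -0.28 (SE 0.28, interval -0.90 to 0.35).

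Pycard, whose product ASC forms the specks that recruit caspase-1, had group means close to each other. They were 3.80 ± 0.516 CPM for normal, 3.82 ± 0.623 for DN, 3.89 ± 1.09 for SIN20 and 3.53 ± 1.35 for SIN40 (SD, n = 4 each). The DN over normal log2 fold change was 0.01 (interval -0.44 to 0.46), that of SIN20 over DN 0.02 (interval -0.53 to 0.57) and that of SIN40 over DN -0.11 (interval -0.72 to 0.50). These intervals leave room for changes in either direction.

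Casp1, the protease, was at 2.42, 2.13, 2.98 and 3.65 CPM in the normal rats, at 1.68, 2.43, 1.57 and 2.33 in the DN rats, at 4.73, 1.55, 3.19 and 1.65 in the SIN20 rats and at 1.90, 2.16 and 3.97 in SIN40 replicates 1, 2 and 4, with replicate 3 between the first pair. The groups overlapped, and 1 rat in each sinomenine group stood high. DN over normal gave a log2 fold change of -0.48 (SE 0.26, interval -1.07 to 0.11, adjusted p = 0.216), SIN20 over DN 0.47 (SE 0.38, adjusted p = 0.545) and SIN40 over DN 0.34 (SE 0.30, adjusted p = 0.582). As rats were left out in turn, SIN20 over DN ran from 0.08 to 0.67 and SIN40 over DN from 0.03 to 0.46. The same libraries, SIN20 replicate 1 and SIN40 replicate 4, also held the highest Pycard value of their groups (4.90 and 5.52 CPM) and the highest level of Ptprc, the pan-leukocyte phosphatase CD45 (14.7 and 12.1 CPM, against 6.96 to 9.82 and 6.47 to 7.33 in the other rats of those groups). The leukocyte markers did not all peak in these libraries. Lyz2 was also highest of its group in each (338.7 and 338.9 CPM). The marker Csf1r was higher in SIN20 replicate 2 (62.0 CPM against 56.3) and in SIN40 replicate 3 (62.0 CPM against 60.8). The part of leukocyte number in the Casp1 values was not tested.

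Il1b encodes the precursor of IL-1β and had the widest range of group means of the 8 genes, 0.92 on the log2 CPM scale. It was at 1.86, 1.94, 1.76 and 1.38 CPM in the normal rats, at 1.64, 1.21, 0.850 and 2.14 in the DN rats, at 1.85, 1.59, 1.42 and 1.03 in the SIN20 rats and at 0.475, 1.36, 0.746 and 1.11 in the SIN40 rats. All 4 SIN40 rats were below all 4 normal rats, while the DN rats overlapped every other group. These levels rest on 9 to 45 counts per rat, and the lowest, 9 counts in SIN40 replicate 1, has an exact 95% Poisson interval of 4.1 to 17.1 counts, which covers counting error only. SIN40 over normal gave a log2 fold change of -0.90 (SE 0.34, unadjusted p = 0.0244, adjusted p = 0.151). Over DN it gave -0.65 (SE 0.41, interval -1.56 to 0.26, adjusted p = 0.435) for the higher dose and 0.01 (interval -0.76 to 0.78) for the lower dose, and DN over normal gave -0.24 (interval -0.97 to 0.48).

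Il18, the other substrate of caspase-1, had its lowest group mean in DN (1.42 ± 0.564 CPM, SD, n = 4). It was at 2.14, 2.08, 2.28 and 1.91 CPM in the normal rats, at 1.06, 1.37, 1.03 and 2.24 in the DN rats, at 2.02, 1.47, 3.24 and 1.69 in the SIN20 rats and at 3.01, 1.03, 2.33 and 1.94 in the SIN40 rats. Of the DN rats 3 lay below every normal rat and the remaining 1, DN replicate 4, lay among them. The log2 fold change of DN over normal was -0.56 (SE 0.30, interval -1.24 to 0.12, adjusted p = 0.210), and it ran from -0.87 to -0.43 as rats were left out. SIN20 over DN gave 0.55 (SE 0.36, adjusted p = 0.453) and SIN40 over DN 0.54 (SE 0.39, adjusted p = 0.485). The DN rats enter both of those comparisons, so the 2 values are not independent.

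Nfkb1, the precursor of the p50 subunit, was the steadiest of the 8 genes, with a coefficient of variation of 7.92% over the 16 rats. It was at 61.8, 65.9, 59.4 and 66.5 CPM in the normal rats, at 74.4, 67.0, 67.4 and 72.8 in the DN rats, at 77.9, 78.4, 76.0 and 72.3 in the SIN20 rats and at 72.6, 75.0, 74.5 and 69.4 in the SIN40 rats. Every one of the 12 rats given streptozotocin was above every normal rat, a separation that 4.97% of 16404 genes showed in one direction or the other. The log2 fold change over normal was 0.16 in the DN group (SE 0.08, interval -0.02 to 0.33, adjusted p = 0.183), 0.26 in the SIN20 group (SE 0.08, interval 0.09 to 0.44, adjusted p = 0.0802) and 0.20 in the SIN40 group (SE 0.08, interval 0.03 to 0.37, adjusted p = 0.155), all in edgeR's quasi-likelihood test. In the SIN20 comparison the call depended on the method: the adjusted p was 0.0214 in DESeq2 and 0.0280 with all 16 rats in one fit, in a range of 0.0214 to 0.192 over the alternatives. Over DN the sinomenine groups gave log2 fold changes of 0.11 (interval -0.07 to 0.29) and 0.05 (interval -0.12 to 0.22) for 20 and 40 mg/kg.

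Nfkbia, the inhibitor that NF-kB itself induces and 1 of the 2 genes with a κB match shown above, had its highest and its lowest group mean in the sinomenine groups. It was at 37.8, 56.5, 48.5 and 55.3 CPM in the normal rats, at 45.3, 43.9, 46.9 and 34.4 in the DN rats, at 40.0, 38.4, 28.9 and 38.8 in the SIN20 rats and at 35.6, 52.5, 64.4 and 52.6 in the SIN40 rats. Of the SIN40 rats 3 lay above every SIN20 rat, and replicate 1 lay among them. SIN40 over SIN20 gave a log2 fold change of 0.48 (SE 0.17, interval 0.10 to 0.87, unadjusted p = 0.0194, adjusted p = 0.961). SIN20 over normal gave -0.44 (SE 0.15, unadjusted p = 0.0134, adjusted p = 0.116), and over DN the values were -0.23 (interval -0.53 to 0.08) and 0.27 (interval -0.12 to 0.65) for 20 and 40 mg/kg. None of these differences passed the adjusted threshold.

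Icam1, the adhesion molecule that leukocytes grip on endothelium, was at 25.9, 37.7, 29.8 and 27.0 CPM in the normal rats, at 39.0, 34.5, 35.7 and 33.4 in the DN rats, at 32.1, 38.6, 31.2 and 35.5 in the SIN20 rats and at 34.6, 37.0, 32.0 and 29.4 in the SIN40 rats. Normal replicate 2 lay among the DN rats, and the other normal rats lay below all of them. DN over normal gave a log2 fold change of 0.25 (SE 0.13, interval -0.03 to 0.53, adjusted p = 0.177). Without normal replicate 2 it was 0.37 and passed the threshold (adjusted p = 0.0300, the lowest value in a range up to 0.368 over the alternatives). That rat also had the highest summed leukocyte level of all 16, 625 CPM, and the part of leukocytes in its Icam1 value was not tested. Over DN the sinomenine groups gave -0.06 (interval -0.29 to 0.17) at 20 mg/kg and -0.10 (interval -0.32 to 0.12) at 40 mg/kg.

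Tnf and Il6 could not be judged. Tnf had 8 counts in DN replicate 4 (0.381 CPM, exact Poisson interval 3.5 to 15.8 counts) and 0 in the other 15 rats. Il6 had 1 count in DN replicates 1, 3 and 4 and in SIN20 replicate 1, and 0 in the other 12 rats. A count of 0 allows up to about 3 counts (3.7 by the exact two-sided Poisson interval used above), and 3 counts are 0.119 to 0.158 CPM at the depth of these libraries, so neither gene was detectable as different between groups at this depth. The κB match of the Il6 promoter stands beside a transcript that was scarcely read here.

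**Figure D2:**
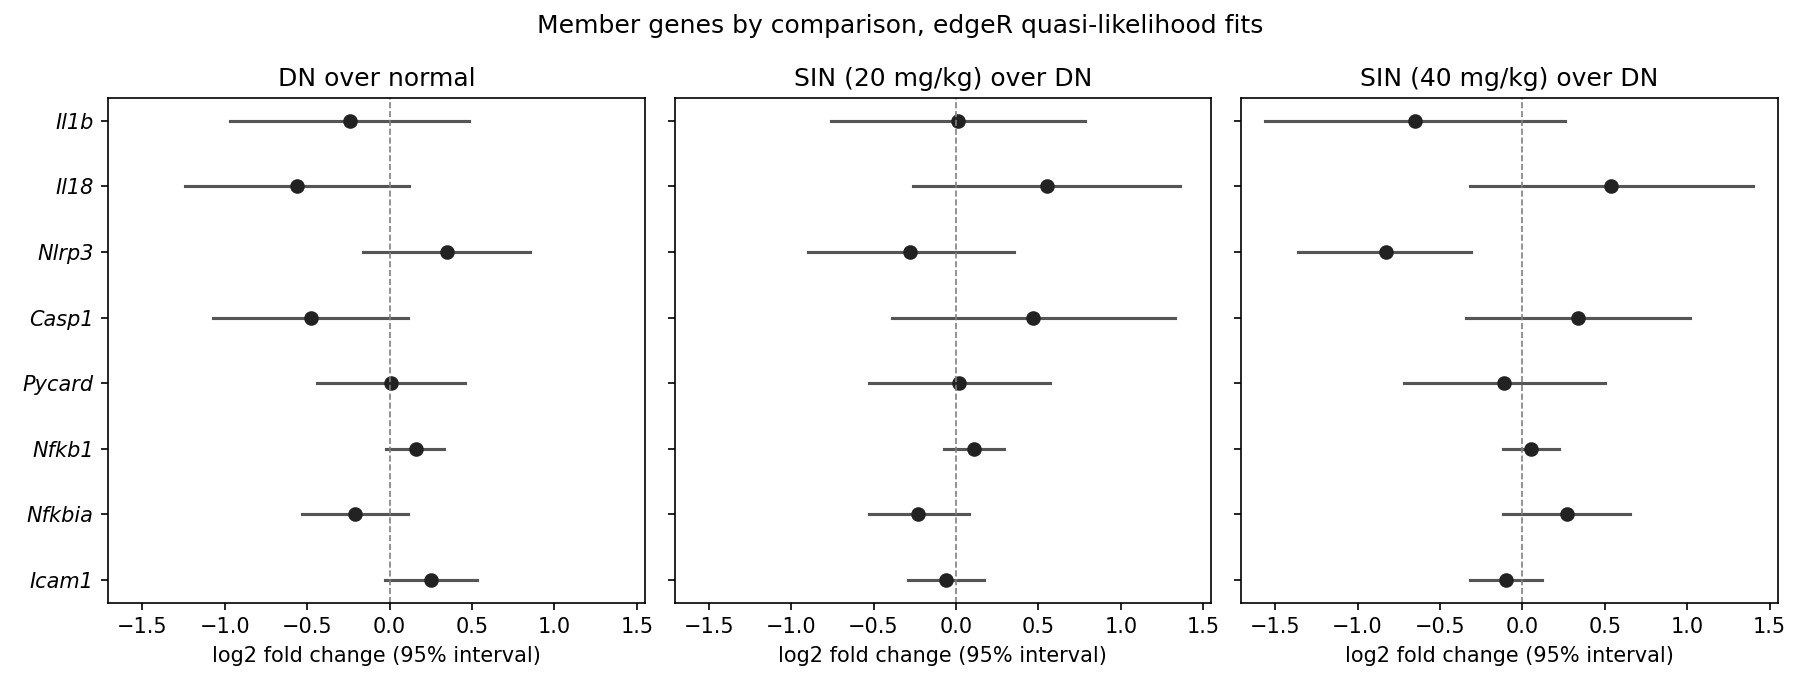
Log2 fold change (x axis, point) and 95% interval (line) of the 8 tested genes in the DN over normal, SIN20 over DN and SIN40 over DN comparisons, from edgeR's quasi-likelihood fits of 4 rats against 4. The Nlrp3 interval of -1.36 to -0.31 in the SIN40 panel is the only 1 of the 24 drawn that does not cross 0.

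The calls of the 8 genes were also read against those of all genes, by comparison. DN over normal had 0 of 8 at an unadjusted p under 0.05, where 36.9% of all genes tested were, and 1 of 8 with groups that did not overlap (Nfkb1, higher), where 24.3% were. The median log2 fold change of the 8 was -0.10, beside 0.002 for all genes. SIN20 over DN had 0 of 8 by either measure (15.4% and 8.99% of all genes), with a median of 0.02. SIN40 over DN had Nlrp3 alone by both (17.1% and 10.4% of all genes), with a median of -0.02.

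Against the normal group, SIN20 had 2 of 8 at an unadjusted p under 0.05, Nfkb1 higher and Nfkbia lower, beside 20.8% of all genes, and 1 of 8 without overlap, Nfkb1, beside 13.7%; 6.36% of all genes passed the adjusted threshold. SIN40 had 3 of 8 by both measures, Nfkb1 higher and Il1b and Nlrp3 lower, beside 22.9% and 14.3% of all genes, and 5.97% of all genes passed the adjusted threshold. Between the doses 1 of 8, Nfkbia, was at an unadjusted p under 0.05 (4.98% of all genes) and 0 of 8 did not overlap (3.31%), while 0.00639% of all genes, a single gene, passed the adjusted threshold.

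The wider pathway was covered by 69 genes in 7 lists, of which 67 were in the table. In the DN over normal comparison 11 of the 60 tested genes were called, 4 higher and 7 lower, a share near the 19.5% of all genes, and the median log2 fold change of the 60 was -0.08. The count moved with single rats: it was 7, 4 and 3 without normal replicates 1, 3 and 4, and 6 without DN replicate 1 or 2.

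The inflammasome sensor and pyroptosis list had 2 of 10 tested genes called, a share near the 19.5% of all genes. Both were lower, and the median of the list was -0.42. Nek7, the kinase that bridges NLRP3 subunits, was at 55.7, 45.8, 60.1 and 64.0 CPM in the normal rats and at 32.7, 36.6, 36.7 and 33.3 in the DN rats, with no overlap. It fell by 0.69 on the log2 scale (SE 0.11, adjusted p = 0.00698). Mefv, which encodes the inflammasome sensor pyrin, fell by 0.66 (SE 0.16, adjusted p = 0.0238). Nlrp3 itself, the partner of Nek7, had a value of 0.35 that did not pass the test.

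The NF-kB subunit and regulator list, the longest of the 7, had 6 of 15 called, beside 19.5% of all genes, with 3 in each direction and a median of 0.06. Among activating components, Chuk (IKKα, a kinase that phosphorylates IκB proteins) fell from 72.7, 48.1, 68.3 and 71.3 CPM in the normal rats to 32.0, 39.2, 40.2 and 41.4 in the DN rats, by 0.76 on the log2 scale (SE 0.14, adjusted p = 0.0113). Ikbkg, the scaffold NEMO of the same kinase complex, fell by 0.31 (adjusted p = 0.0470). Nfkb2, the precursor of the p52 subunit, rose by 0.42 (adjusted p = 0.0449) and is counted here as neither activating nor inhibitory. Among inhibitory components, Tnip1 (the A20-binding protein ABIN1) rose by 0.46 (adjusted p = 0.0199) and Nfkbib (IκBβ) by 0.41 (adjusted p = 0.0337), while Cyld, a deubiquitinase that restrains the pathway, fell by 0.61 (adjusted p = 0.0171). The called members lay on both sides, and no direction of the pathway is read from them. Nfkbib, Nfkb2 and Ikbkg lie outside the rule of 3 names per list and were named after their values were seen.

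Of the receptors and targets, Tnfrsf1a, the main TNF receptor, rose by 0.39 (SE 0.12, adjusted p = 0.0460), 1 of 7 in the TNF list. The list counts of this comparison all stand beside 19.5% of all genes called. Il6st, the shared signalling receptor gp130, fell by 0.38 (SE 0.09, adjusted p = 0.0210), 1 of 5 in the IL-6 list. Tnf and Il6, which signal through these receptors, were too scarce to judge in these libraries, and no other ligand was examined. Vcam1, an adhesion molecule that NF-kB induces together with Icam1, was at 26.4, 23.1, 34.2 and 29.8 CPM in the normal rats and at 14.2, 14.7, 12.8 and 15.7 in the DN rats. It fell by 0.98 (SE 0.14, adjusted p = 0.00457), 1 of 8 in the adhesion and chemokine list, whereas the Icam1 value was 0.25 and did not pass the test. Beside it, Ptprc fell by 0.81 (SE 0.22, adjusted p = 0.0328), the only leukocyte marker of 12 tested to be called, and its part in the Vcam1 value was not tested. The leukocyte markers did not share a direction: the median of the 12 was -0.06, and Csf1r, Cd4, Cd68 and Cd79a had values of 0.43, 0.35, 0.24 and 0.87 that did not pass the test. The IL-1 and IL-18 list (0 of 8) and the Toll-like receptor list (0 of 7) had no call in edgeR's quasi-likelihood test. Each held 1 gene at an unadjusted p under 0.05: Il18r1, the IL-18 receptor chain, at -1.20 (adjusted p = 0.0559) and Tlr4, the endotoxin receptor, at -0.71 (adjusted p = 0.119).

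**Figure D3:**
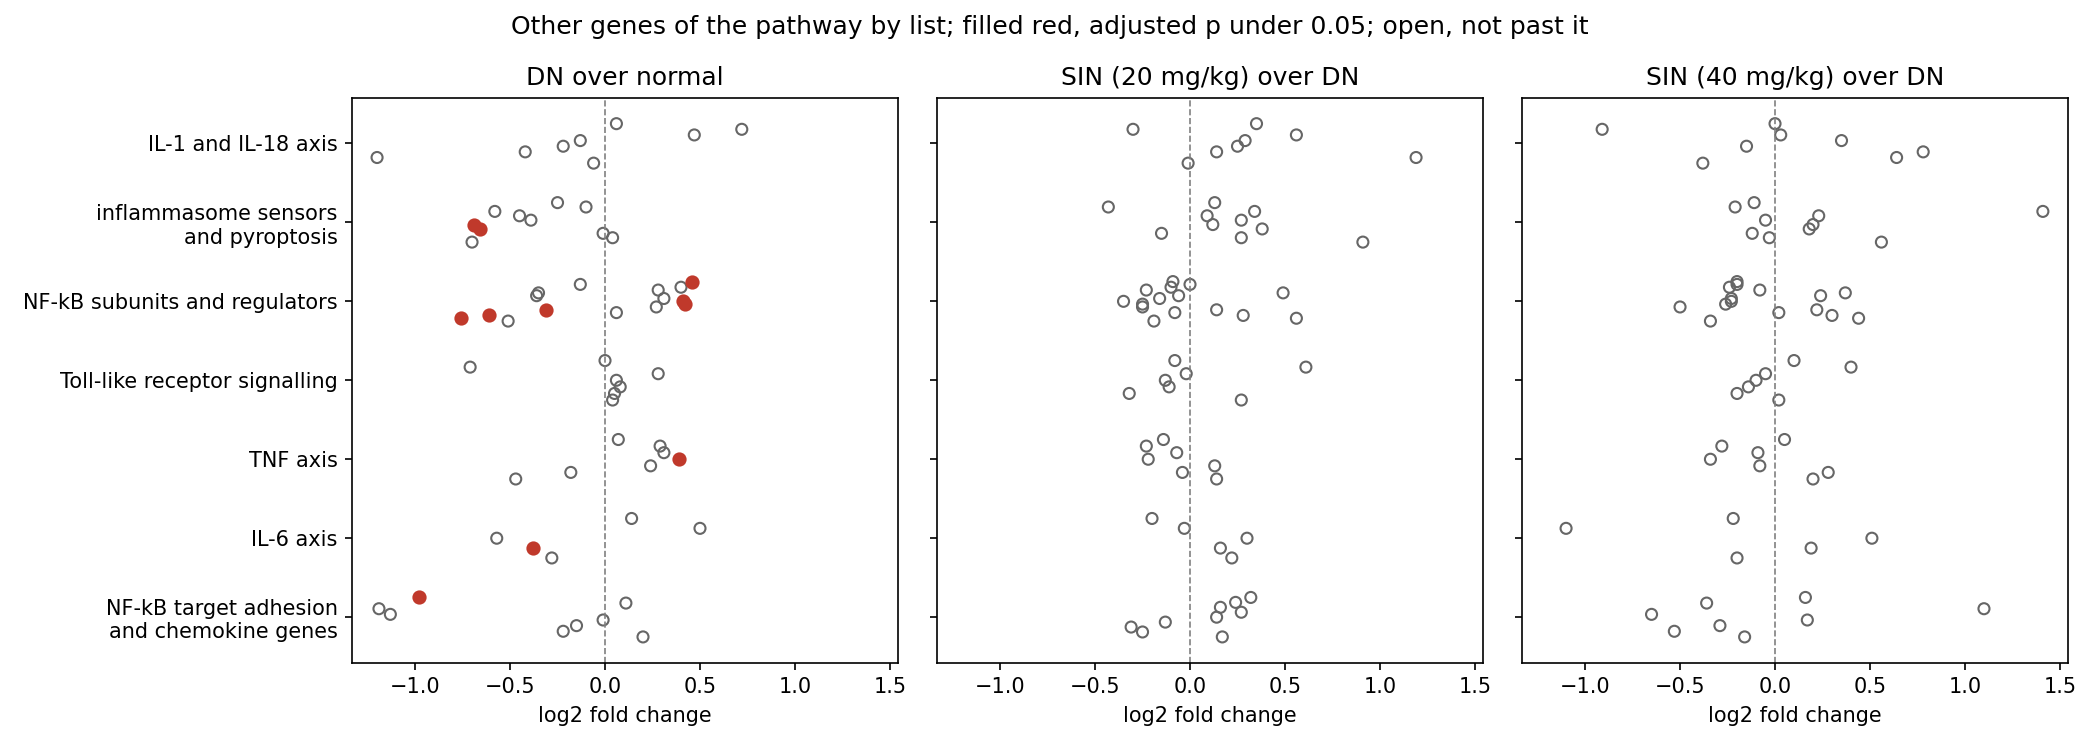
Log2 fold change (x axis) of the tested genes of the 7 pathway lists (rows of points, 1 point per gene, none of the 10 main genes included) in 3 comparisons of 4 rats against 4. Filled red points passed an adjusted p of 0.05: 11 of 60 in DN over normal, and none in SIN20 over DN (61 tested) or SIN40 over DN (60 tested).

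Against DN, no gene of the 7 lists was called at either dose of sinomenine in edgeR's quasi-likelihood test. At the lower dose 9 of 61 genes were at an unadjusted p under 0.05, a share near the 15.4% of all genes, with a median log2 fold change of 0.09, and DESeq2 called 1, Chuk. Chuk had a log2 fold change of 0.56 (SE 0.14, adjusted p = 0.270, and from DESeq2 0.0352), with the 4 SIN20 rats at 66.3, 50.6, 62.0 and 46.8 CPM, above every DN rat. Among the leukocyte markers of the same comparison, Cd4, a T cell and macrophage co-receptor, was at 33.5 to 40.3 CPM in the SIN20 rats. In the DN rats it was at 50.7 to 61.2 CPM. Its log2 fold change was -0.62 (SE 0.10, adjusted p = 0.141 in edgeR's quasi-likelihood test and 3.47e-05 in DESeq2, in a range up to 0.528 over the alternatives). Ptprc went the other way, at 0.65 (SE 0.26, adjusted p = 0.302 in edgeR's quasi-likelihood test). Of the 12 leukocyte markers tested, 4 lay above 0 and 8 below, with a median of -0.06, and edgeR called 0. The part of leukocytes in the values of the list genes was not tested. Casp4, the inflammatory caspase that senses cytosolic endotoxin, had 0.91 (SE 0.28, adjusted p = 0.270), and Cx3cl1, the chemokine fractalkine, had -0.31 (SE 0.10, adjusted p = 0.270). At the higher dose 13 of 60 genes were at an unadjusted p under 0.05, beside 17.1% of all genes, with a median of -0.06, and DESeq2 called 1, Socs3, the feedback inhibitor of IL-6 signalling, which had -1.10 in edgeR (SE 0.19, adjusted p = 0.167). Il1rn, the IL-1 receptor antagonist, had -0.91 (SE 0.39, adjusted p = 0.278), P2rx7, the ATP-gated channel that triggers NLRP3, had 1.41 (SE 0.44, adjusted p = 0.206), and Tnfrsf1a had -0.34 (SE 0.12, adjusted p = 0.219). For P2rx7 the SIN40 rats were at 9.03, 5.86, 4.15 and 2.13 CPM, and the last of these lay among the DN rats.

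Against the normal group, 3 of 61 list genes were called in the SIN20 group, a share no higher than the 6.36% of all genes, and all 3 were lower: Nek7 at -0.57 (adjusted p = 0.0436), Panx1, a channel for ATP release, at -0.53 (adjusted p = 0.0454), and Cx3cl1 at -0.47 (adjusted p = 0.0362). None of the list was called without normal replicate 1 or 4 or SIN20 replicate 2 or 3, and 1 was called without normal replicate 2 or 3. In the SIN40 group 2 of 61 were called, a share below the 5.97% of all genes, and both were lower: Vcam1 at -0.83 (SE 0.14, adjusted p = 0.00866) and the chemokine Ccl5 at -0.76 (SE 0.18, adjusted p = 0.0403). Only 1 was called without normal replicate 1 or 3 or SIN40 replicate 2 or 3. Cd3e, a T cell receptor subunit, was lower in the same comparison (log2 fold change -1.24, SE 0.30, adjusted p = 0.0386 in edgeR's quasi-likelihood test). It was the only leukocyte marker of 12 tested to be called there. Of the 12, 9 lay below 0 and 3 above, with a median of -0.20. The part of Cd3e in the Ccl5 value was not tested. The SIN40 rats had Vcam1 at 16.8, 14.2, 14.5 and 18.4 CPM, all below the normal rats. Between the doses no list gene was called in edgeR's quasi-likelihood test and 5 of 61 were at an unadjusted p under 0.05, beside 4.98% of all genes, among them Il33 at -0.36 and Il1r1, the IL-1 receptor, at -0.41 (adjusted p = 0.961 for both).

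Over the 16 rats, 28 pairs of the 8 genes were correlated in log2 CPM, with permutation p-values adjusted over the 28. Rats were permuted across the 4 groups, so these p-values do not separate group differences from variation between rats. The r after removal of group means carries no p-value. Il1b and Nlrp3, the primed cytokine and its sensor, were positively correlated (r = 0.672, permutation p = 0.00364, adjusted 0.0619; rho = 0.703, permutation p = 0.00343, adjusted 0.0480). Without the 2 rats farthest from the median of Il1b r was 0.602, and after removal of the group means it was 0.606. Casp1 and Icam1 were negatively correlated (r = -0.673, permutation p = 0.00442, adjusted 0.0619; rho = -0.744, permutation p = 0.00138, adjusted 0.0386). For that pair r was -0.749 without the 2 farthest rats and -0.649 after removal of the group means. Both relations passed the adjusted threshold by rho and missed it by r, and the partners within the platform, Casp1 and Pycard, gave r = 0.538 (permutation p = 0.0328, adjusted 0.261), which dropped to 0.238 without the 2 farthest rats.

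**Figure D4:**
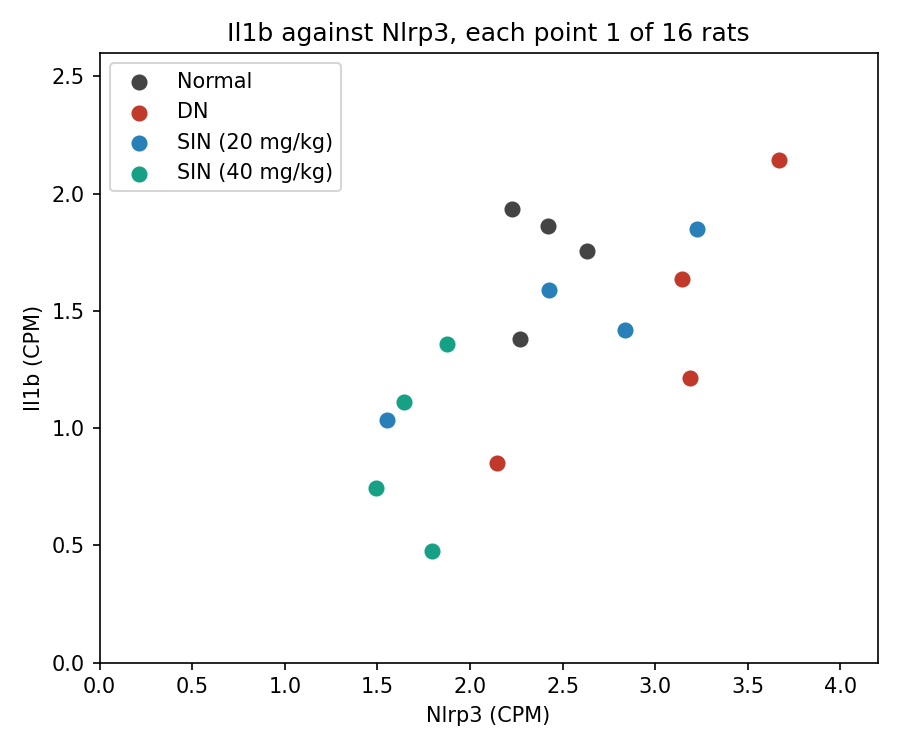
Il1b (y axis, CPM) against Nlrp3 (x axis, CPM) in each of the 16 rats, coloured by group. The SIN40 rats gather at the lower left (Nlrp3 1.49 to 1.88 CPM, Il1b 0.475 to 1.36 CPM), the normal rats lie close together, and the DN rats run from 2.15 to 3.67 CPM of Nlrp3.

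For Il1b, the gene with the widest range of group means, the most similar patterns among 16404 genes over the 16 rats belonged to Ly49s7 (r = 0.799), Ppfia4 (0.797), RGD1309808 (0.795), Olr1411 (0.781) and Hcst (0.779), as Pearson correlations of log2 CPM. Ly49s7 and Hcst encode a natural killer cell receptor and the signalling adaptor DAP10. Ppfia4, RGD1309808 and Olr1411 had r of the same size, and no shared cell type is read from these matches. All points share the libraries and their depth, and after removal of the group means the correlations were 0.638 to 0.772. These values describe likeness and carry no test.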

How the data were processed

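Renal RNA of 16 rats, 4 per group, was enriched for mRNA and sequenced. The authors trimmed the reads, mapped them by TopHat against Ensembl's rat assembly Rnor_6.0, and deposited 1 table of estimated counts per gene and rat, without normalization; the processing notes of the submitters also name Bowtie, RSEM and edgeR. Columns were joined to rats through the library number that each sample record carries; 4 columns of libraries that no record names and 5 columns of means were not used. Whole numbers made up 74.3% of nonzero values, and all were rounded.

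Each of 6 pairwise comparisons was fitted on its 8 rats with edgeR 4.0.16 (quasi-likelihood test, TMM, filterByExpr, two-sided, Benjamini-Hochberg over all genes tested), and a call is an adjusted p under 0.05. Log2 CPM used a prior count of 2. Steps were tested on simulated counts drawn from the means and dispersions of the normal and DN rats. Of genes given a log2 fold change of size 1, 56.7% were called, and of those given size 2, 90.7%. Among the genes left unchanged, 15 were called. A gene without a call may therefore still differ. Depth was 19616312 to 25217030 counts per rat, and intervals on counts cover counting error only.

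The 10 genes, the 7 lists and the marker lists were chosen with earlier results of these data known. Named were all 10 genes and, per list and comparison, up to 3 called genes or otherwise up to 2 with the smallest p. Alternatives were DESeq2 1.42.0, RLE normalization, no filter, a replicate block, a single fit of all 16 rats, and each rat left out. Ly96, Ticam1 and the marker Pecam1 were not found by name. The summed level of the kidney epithelium markers is not reported here. The promoters came from RefSeq (GRCr8), a build other than that of the counts, and proteins were not used here. R was 4.3.3 and Python 3.11.15.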

Additional observations from a re-analysis of the deposited data

Results flagged for a closer look

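Of 33 groups of 4 rats tested for a rat far from the others, 3 stood out by Dixon's ratio, and chance alone gives about 1 in 20. The Tnf ratio is fixed by its 3 rats at 0 and is not to be read against that rate. Casp1 in SIN40 replicate 4 was at 3.97 CPM, with the other rats of that group at 1.90 to 2.16 CPM. Nfkbia in SIN20 replicate 3 was at 28.9 CPM, with the others at 38.4 to 40.0 CPM. Tnf in DN replicate 4 was at 0.381 CPM, from 8 counts, with the other DN rats at 0.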

How the results depend on the processing

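The direction and the side of the threshold stayed as reported in 579 of 621 recomputed fold changes of the 8 genes; 3 newly passed the threshold, which none had passed as reported, and 39 changed sign, of which the largest had a reported size of 0.14 on the log2 scale. RLE scaling moved no group mean by more than 1.09%. Of the 10 genes, the count called was 1 in the SIN20 over normal comparison by DESeq2 and 1 with all 16 rats in one fit (Nfkb1), and 0 to 1 in DN over normal as rats were left out (Icam1, without normal replicate 2). The list genes called in DN over normal, 11 as reported, were 17 by DESeq2, 4 with the replicate number as a block and 3 to 13 as rats were left out. In SIN20 over DN and in SIN40 over DN, DESeq2 called 1 each. In SIN20 over normal, 3 as reported, the count was 6 by DESeq2, 1 with the replicate block and 0 to 2 with a rat left out. In SIN40 over normal, 2 as reported, it was 7 by DESeq2, 1 with no filter, 4 with one fit, 5 with the replicate block and 1 to 3 with a rat left out. The cause of these shifts was not tested.

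Changes of sign as a rat was left out gave these ranges of log2 fold change. For DN over normal, Pycard ran from -0.06 to 0.11. For SIN20 over DN, Il1b ran from -0.18 to 0.26 and Pycard from -0.12 to 0.14, and the replicate block gave Pycard -0.007. For SIN40 over DN, Pycard ran from -0.42 to 0.017. For SIN40 over SIN20, Il18 ran from -0.25 to 0.25, Casp1 from -0.44 to 0.25 and Icam1 from -0.10 to 0.007. For SIN20 over normal, Il18 ran from -0.28 to 0.13, Nlrp3 from -0.077 to 0.24, Casp1 from -0.40 to 0.19 and Pycard from -0.10 to 0.15. For SIN40 over normal, Il18 ran from -0.26 to 0.20, Pycard from -0.40 to 0.015 and Nfkbia from -0.082 to 0.18.

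Over all genes, DN over normal called 3074 as reported and 1325 with the replicate block, and 769 to 3781 with a rat left out. DESeq2 called 221 genes in SIN20 over DN, 436 in SIN40 over DN, 17 between the doses, 1726 in SIN20 over normal and 1761 in SIN40 over normal, where edgeR's quasi-likelihood test called 0, 0, 1, 1009 and 940, and one fit of all 16 rats called 13 and 8 in the SIN over DN comparisons. Deviations of rats of a shared number were only weakly correlated (-0.239 to 0.244). These values show no clear pairing by number but are too few and too weak to exclude a shared block. The largest was that of replicate 1 in SIN40 over normal, where the replicate block called 1255 genes against 940 as reported.

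With 4 rats a group and 9 to 114 counts per rat for the inflammasome genes, counting error bears on Il1b, Il18, Nlrp3, Casp1 and Pycard, and Tnf and Il6 are lower still.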
